A study of Homo sapiens with 18 samples.

Results

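A set of 10 genes was examined through which tumour cells can restrain immune cells, namely the checkpoint ligands CD274, PDCD1LG2, CD276, PVR, NECTIN2, LGALS9 and CD47, the adenosine-forming ectoenzymes NT5E and ENTPD1, and the tryptophan-degrading enzyme IDO1. The members were taken by gene symbol, and all 10 were found among the 40266 symbols of the expression table. Of these, 7 reached 1 TPM (transcripts scaled to the same total in each library) in at least 3 libraries and could be tested, while PDCD1LG2, ENTPD1 and IDO1 did not. RNA had been sequenced from 18 libraries of 6 groups, with 3 libraries from 3 passages in each group. The groups were parental, Holoclone and Paraclone cells of the pancreatic ductal adenocarcinoma (PDAC) lines Panc1, derived from a primary tumour and used as the mesenchymal-like model, and Panc89, derived from a lymph node metastasis and used as the epithelial model. Holoclone cells stood for cancer stem cells and Paraclone cells for non-stem cells, both raised from single cells by colony shape. Each Holoclone or Paraclone group is 1 clone of its line, so a difference between them cannot be told apart from a difference between the clones. No group was treated with a drug or cytokine, and no immune cells were cultured with the tumour cells.

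CD274 encodes PD-L1 and PDCD1LG2 encodes PD-L2, the ligands of the inhibitory T cell receptor PD-1, and interferon gamma is the best known inducer of CD274 and of IDO1. CD276, or B7-H3, is a B7 family protein carried by many carcinomas. PVR (CD155) and NECTIN2 (CD112) bind the inhibitory receptor TIGIT as well as the activating receptor CD226 on T and natural killer (NK) cells, and galectin-9, the product of LGALS9, is a secreted lectin that binds TIM-3. CD47 is the signal that stops macrophages from engulfing a cell through SIRPA. At the cell surface ENTPD1 (CD39) cleaves ATP and ADP to AMP, and NT5E (CD73) cleaves AMP to adenosine, which dampens T and NK cells. IDO1 starts the breakdown of tryptophan to kynurenine, a ligand of the aryl hydrocarbon receptor. PDAC is known as a tumour that responds poorly to blockade of PD-1.

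CD274 and PDCD1LG2 are neighbours on chromosome 9, with CD274 at chr9:5450503-5470566 and 40.0 kb between them (GENCODE 44, GRCh38, both on the plus strand). PVR at chr19:44643798-44666162 and NECTIN2 at chr19:44846175-44889223 lie 180.0 kb apart, also on the plus strand. NT5E is at chr6:85449584-85495791, CD276 at chr15:73683966-73714514 and ENTPD1 at chr10:95711779-95877266, all on the plus strand, and CD47 is at chr3:108043091-108091862 on the minus strand. LGALS9 at chr17:27629798-27649560 has the near copies LGALS9C at chr17:18476737-18494945 and LGALS9B, on the minus strand, at chr17:20449395-20467539. Promoter windows of RefSeq (GRCh38.p14) were matched for 8 of the 10 members, and PDCD1LG2 and IDO1 were not matched. The 250 bases before the RefSeq start are shown for CD274, the member named for its interferon response, and for NT5E, the member that differed most between Holoclone and Paraclone cells. The CD274 bases lie at chr9:5450292-5450541 and those of NT5E at chr6:85449833-85450082, both on the plus strand, with matches to the motifs searched in capitals.
CD274: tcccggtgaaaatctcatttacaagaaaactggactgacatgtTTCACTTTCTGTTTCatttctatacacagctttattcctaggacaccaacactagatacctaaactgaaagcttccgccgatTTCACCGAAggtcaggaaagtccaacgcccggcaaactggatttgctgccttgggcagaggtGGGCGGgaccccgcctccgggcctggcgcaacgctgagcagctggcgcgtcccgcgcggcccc
NT5E: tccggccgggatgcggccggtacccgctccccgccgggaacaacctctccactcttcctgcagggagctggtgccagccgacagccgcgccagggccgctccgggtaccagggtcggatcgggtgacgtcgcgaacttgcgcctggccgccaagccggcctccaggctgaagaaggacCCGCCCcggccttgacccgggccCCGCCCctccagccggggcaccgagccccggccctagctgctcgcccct
These windows, extended by the 50 bases after the start, were searched on both strands for an interferon regulatory factor (IRF)-like motif GAAANNGAA, a GAS element TTCNNNGAA, an AP-1 motif TGANTCA, a hypoxia core ACGTG and a GC box GGGCGG. CD274 held 2 IRF-like matches, which share bases with each other, 1 GAS match and 1 GC box. Among the 35116 windows of all genes, 8.11% held an IRF-like match, 7.66% a GAS match, 7.71% an AP-1 match, 21.4% a hypoxia core and 45% a GC box. NT5E held 2 GC boxes and none of the others, and its window had 37 CG pairs where the median window had 14. CD47 had 45 CG pairs, CD276 37 in the first of its windows and CD274 22, whereas LGALS9 had 2. The same bases of LGALS9 (chr17:27630938-27631187, plus strand), LGALS9B (chr17:20467540-20467789, minus strand) and LGALS9C (chr17:18476539-18476788, plus strand) are shown because these copies bear on the LGALS9 values, and no motif match lay in these bases, while the 50 bases that follow hold 1 IRF-like match in LGALS9.
LGALS9: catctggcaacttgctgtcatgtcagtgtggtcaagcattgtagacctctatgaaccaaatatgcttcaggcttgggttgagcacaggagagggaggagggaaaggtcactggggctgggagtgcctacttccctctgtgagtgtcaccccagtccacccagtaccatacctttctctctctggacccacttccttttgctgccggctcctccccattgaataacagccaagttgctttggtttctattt
LGALS9B: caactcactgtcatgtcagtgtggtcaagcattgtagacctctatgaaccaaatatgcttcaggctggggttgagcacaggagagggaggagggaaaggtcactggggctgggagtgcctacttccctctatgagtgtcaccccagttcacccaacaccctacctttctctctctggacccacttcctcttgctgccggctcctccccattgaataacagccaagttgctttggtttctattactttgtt
LGALS9C: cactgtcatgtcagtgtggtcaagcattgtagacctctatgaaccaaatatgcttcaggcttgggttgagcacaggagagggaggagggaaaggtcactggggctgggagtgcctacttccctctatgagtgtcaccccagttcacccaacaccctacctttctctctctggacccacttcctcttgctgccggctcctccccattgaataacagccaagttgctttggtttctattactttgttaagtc
Aligned end to end, LGALS9 matched LGALS9B in 233 of 243 aligned bases (95.9%) and LGALS9C in 229 of 238 (96.2%), and both copies matched each other in 244 of 245 (99.6%).

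The values were deposited as log2(TPM + 1). TPM are scaled per transcript length, so levels may be compared between genes, but they keep no read totals, and the depth behind each value is unknown. Between 12932 and 14199 genes reached 1 TPM in a library, and correlations across genes between libraries of a group were 0.954 to 0.992. VIM and CDH1 followed the labels of the lines. VIM was at a mean of 3779 TPM in parental Panc1 cells and 0.0221 to 0.457 TPM in every Panc89 library. CDH1 was at a mean of 75.3 TPM in parental Panc89 cells. Other markers went both ways. Between the Holoclone cells, 3 of 5 epithelial markers were higher and 2 lower in Panc89 (29.3% and 36.4% of all genes). For 5 mesenchymal markers the counts were 0 and 4. Between the Paraclone cells (30.2% and 30.4% of all genes) they were 2 and 0 for epithelial and 2 and 3 for mesenchymal markers. Of 11 immune cell markers, CD68 stood at 8.31 to 151 TPM and the other 10 together at 0.876 to 6.63 TPM in a library, with CD2 and MS4A1 at 0 throughout and CD3E at 0.0361 TPM at most. PTPRC reached 0.956 TPM. Among 10 genes listed as receptors of the members, PDCD1, the PD-1 gene, reached 6.04 TPM, CD96 3.32 TPM and LAG3 1.73 TPM. The others stayed at or under 0.597 TPM, with CTLA4 at 0.0535 TPM and TIGIT at 0.193 TPM at most. PECAM1, an endothelial adhesion gene, averaged 60.1 TPM in parental Panc89 cells while CDH5 reached 5.07, KDR 0.248 and VWF 0.355 TPM at most in any library. Of these marker lists, 3 immune genes were tested. In Panc89 Holoclone against Paraclone cells 0 were higher and 2 lower (22.4% and 13.3% of all genes). In Panc1 0 were higher and 1 lower (27.4% and 9.97%). Of 8 fibroblast and endothelial markers 3 were tested, with 3 higher in parental Panc89 than in parental Panc1 cells (27.5% of all genes). The same 3 were lower in Panc89 Holoclone than in Panc89 Paraclone cells (13.3% of all genes). PECAM1 and CDH5 reached 1 TPM in 1 line only and so could pass the filter only through that line. Of 5 epithelial markers 3 were higher and 1 lower in parental Panc89 cells (27.5% and 38.5% of all genes). Of 5 mesenchymal markers 0 were higher and 3 lower there. Of 10 receptors of the members 3 were tested (PDCD1, CD96 and LAG3), with 2 higher and 1 lower. These 3 receptors and the mesenchymal genes VIM, SPARC and ZEB2 reached 1 TPM in 1 line only. Their counts between the lines therefore partly follow from the filter. The part of these genes in the differences of the members was not tested. In bulk RNA, fewer cells that use a gene and less RNA of it per cell cannot be told apart.

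At these levels the members fell into 3 sets. NT5E, NECTIN2, CD47, CD276 and PVR were at 25.9 TPM or more in every library, with NT5E the highest at 241 TPM and above 92.6% of the tested genes by its mean. LGALS9 reached 122 TPM in Panc89 but at most 1.95 TPM in Panc1, and CD274 stayed between 0.118 and 2.23 TPM, above only 8.66% of the tested genes. PDCD1LG2, ENTPD1 and IDO1 stayed under 1 TPM throughout, with maxima of 0.0921, 0.340 and 0.954 TPM.

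**Figure D1:**
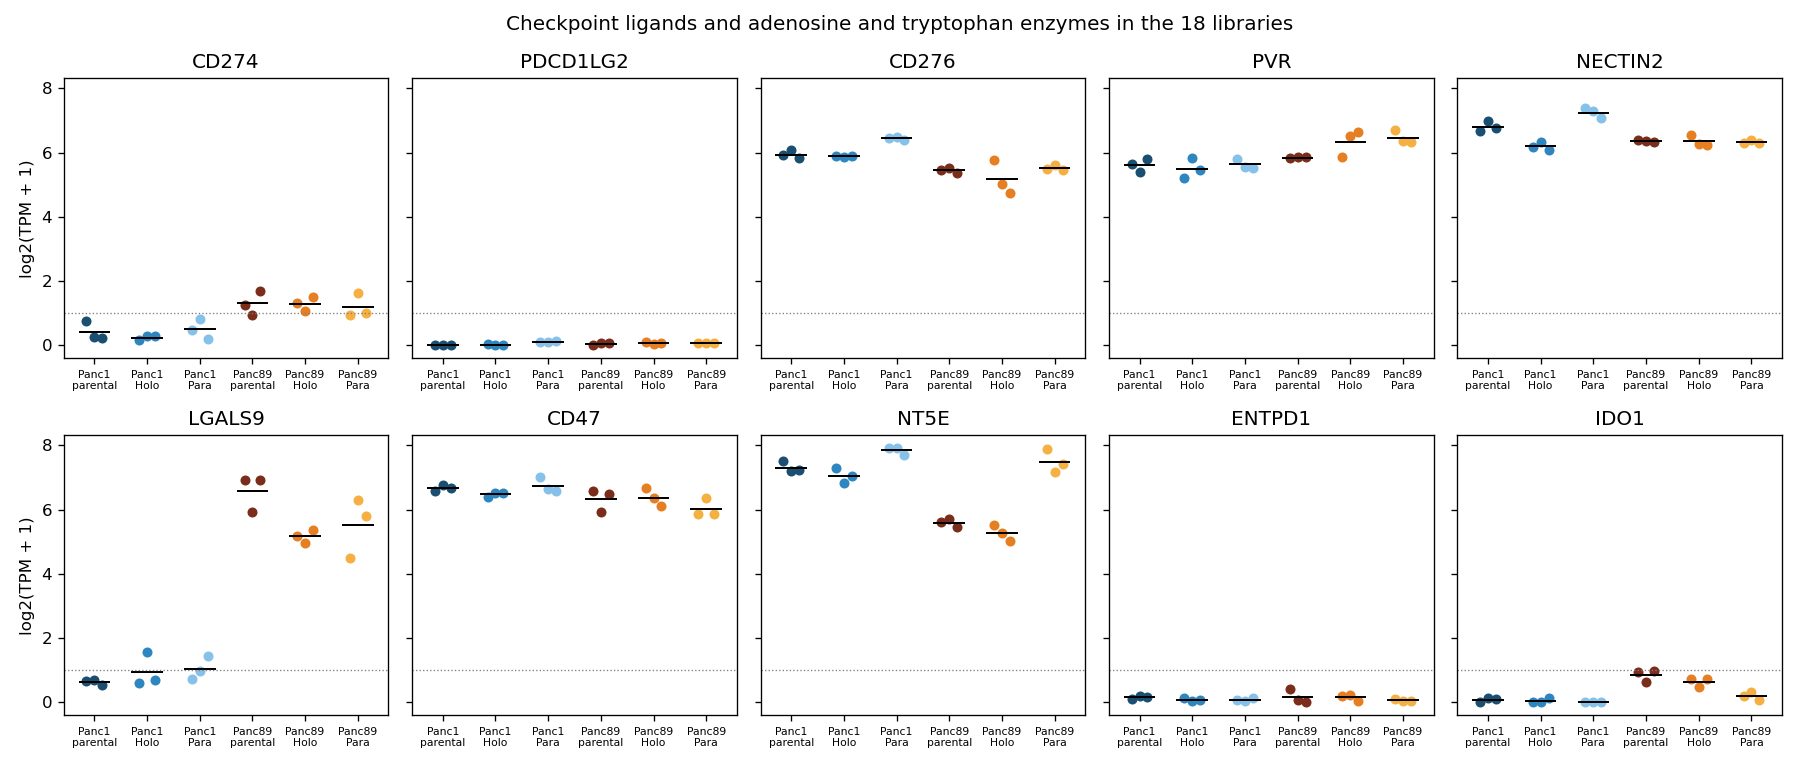
Level of each of the 10 members, on the log2(TPM + 1) scale of the y axis, in the 6 groups on the x axis, with a point for each of the 3 libraries, a black line at the group mean and a dotted line at 1 TPM. LGALS9 separates the Panc89 libraries (21.4 to 122 TPM) from the Panc1 libraries (0.468 to 1.95 TPM), and NT5E is lowest in parental and Holoclone Panc89 cells (31.7 to 51.6 TPM).

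Groups were compared with limma on the log2(TPM + 1) values of 16093 genes, and a gene was called at a Benjamini-Hochberg adjusted p under 0.05. All fold changes are log2 differences on that scale and understate changes near or under 1 TPM. Of the 7 members tested, 5 were called between parental Panc89 and parental Panc1 cells (2 higher and 3 lower in Panc89), where 66.0% of all tested genes were called. Between the Holoclone cells of the lines 5 were called (3 higher, 2 lower), beside 65.8% of all genes, and between the Paraclone cells 6 (3 higher, 3 lower), beside 60.7%. With most genes called in these comparisons, the counts set the members apart from other genes in none of them, and the direction differed from member to member. CD274 and LGALS9 passed the filter only through their Panc89 libraries, so their counts between the lines partly follow from it.

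Between Holoclone and Paraclone cells 3 members were called in Panc1 (37.3% of all genes) and 1 in Panc89 (35.7%), each of them lower in the Holoclone cells. The median of the 7 members was −0.27 in Panc1 and −0.12 in Panc89, while the median of all tested genes was 0.19 and 0.09. Compared with parental Panc1 cells, 1 member was lower in Holoclone cells (10.9% of all genes called) and 3 were higher in Paraclone cells (28.6%). Compared with parental Panc89 cells, 1 was lower in Holoclone cells (24.7%) and 2 were higher in Paraclone cells (19.4%). The Holoclone against Paraclone change itself differed between the lines for 2 members, NT5E and NECTIN2, beside 35.1% of all genes. The comparisons within a line share libraries, so their calls are not independent of each other.

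The median of all tested genes lay off 0 in several comparisons, at −0.18 between the parental cells, −0.11 between the Holoclone cells, 0.19 for Holoclone against Paraclone and −0.17 for Paraclone against parental Panc1 cells, and −0.11 for the difference between the lines. Upper quartile or median-of-ratios scaling brought these medians to between −0.0128 and 0.0316. The share of called genes that were higher then moved from 73.3% to 49.9% or 46.8% for Holoclone against Paraclone Panc1 cells, from 62.8% to 50.6% or 49.1% in Panc89, from 25.6% to 52.7% or 55.2% for Paraclone against parental Panc1 cells and from 65.2% to 50.5% or 51.1% for Holoclone against parental Panc89 cells. Median-of-ratios scaling moved it from 41.6% to 51.6% between the parental cells. Calls of members that such a scaling changed are named with the gene.

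**Figure D2:**
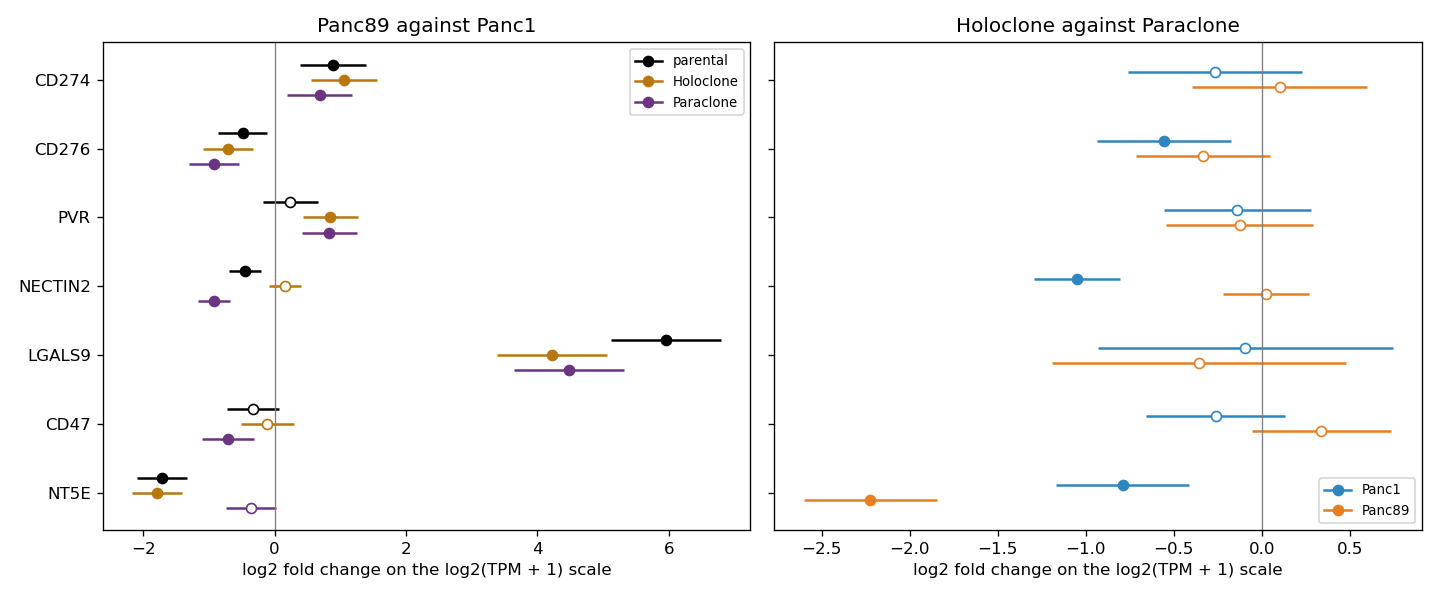
Log2 fold changes (x axis, log2(TPM + 1) scale) with 95% confidence intervals of the 7 tested members (y axis), for Panc89 against Panc1 in parental, Holoclone and Paraclone cells on the left and for Holoclone against Paraclone cells in each line on the right, with filled points called at an adjusted p under 0.05. NT5E is lower in Holoclone cells of both lines (−0.79 in Panc1, −2.22 in Panc89), whereas NECTIN2 is called in Panc1 (−1.05) and not in Panc89 (0.026, and −0.097 or −0.11 under the scalings).

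CD274, the PD-L1 gene, was low throughout and higher in Panc89 than in Panc1. It was at 0.688, 0.194 and 0.175 TPM in the parental, 0.118, 0.213 and 0.217 TPM in the Holoclone and 0.401, 0.776 and 0.153 TPM in the Paraclone libraries of Panc1. In Panc89 it was at 1.41, 0.934 and 2.23 TPM in the parental, 1.50, 1.10 and 1.84 TPM in the Holoclone and 0.945, 2.11 and 0.990 TPM in the Paraclone libraries. Every Panc89 library was above every Panc1 library, and within each line the 3 groups overlapped. The difference between the lines was 0.89 (SE 0.23, limma adjusted p = 0.00328) for parental, 1.06 (adjusted p = 0.000869) for Holoclone and 0.69 (adjusted p = 0.0179) for Paraclone cells. The difference between the Paraclone cells was not called in a fit of those groups alone (adjusted p = 0.0555), without Panc1 Paraclone replicate 3 (0.54, adjusted p = 0.0847) or without Panc89 Paraclone replicate 2 (0.47, adjusted p = 0.0958).

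Within the lines no difference of CD274 was called. The interval of Holoclone against Paraclone was −0.76 to 0.23 in Panc1 and −0.39 to 0.60 in Panc89. PDCD1LG2, the PD-L2 gene, was listed at 0 in all parental Panc1 libraries and did not exceed 0.0921 TPM, which put it under the filter on low values. In a fit of 29343 genes without that filter it was called between Holoclone and Paraclone Panc1 cells (−0.096, limma adjusted p = 0.00431), between Paraclone and parental Panc1 cells (0.11, adjusted p = 0.002) and for the difference between the lines (0.090, adjusted p = 0.0476), all at levels under 0.1 TPM. No 31-base stretch of the CD274 or PDCD1LG2 transcripts recurred in transcripts of another gene.

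Genes of interferon gamma signalling, PD-L1 stability and PD-L1 shedding formed a list of 30, tested in full, of which 9 were higher and 7 lower in parental Panc89 than in parental Panc1 cells (27.5% and 38.5% of all genes), with a median of 0.12 beside −0.18 for all genes. B4GALT1, a galactosyltransferase, was 2.60 higher and MYC 2.44 higher in the parental Panc89 cells (limma adjusted p = 8.72e-09 and 8.27e-10). Between Holoclone and Paraclone cells 10 were higher and 4 lower in Panc1 (27.4% and 9.97% of all genes), and 8 were higher and 1 lower in Panc89 (22.4% and 13.3%). Upper quartile scaling gave 7 higher and 6 lower in Panc1 and 6 and 4 in Panc89, and in the parental cells 14 and 5. IRF1, the transcription factor best known for CD274 induction by interferon gamma, averaged 131 TPM in Holoclone and 52.3 TPM in Paraclone cells of Panc89, a difference of 1.31 (adjusted p = 7.51e-05). In the same comparison CD274 differed by 0.10 (adjusted p = 0.78), with a TPM ratio of 1.10. HIF1A, the hypoxia factor, was lower in Panc1 Holoclone than in Panc1 Paraclone cells (−1.29, adjusted p = 5.81e-06). CD274 differed there by −0.27 (adjusted p = 0.411), with a TPM ratio of 0.413 and overlapping libraries. At the level of CD274 the log2(TPM + 1) scale understates a change, so its differences cannot be set against those of IRF1 or HIF1A by size.

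Most genes of a list from around CD274 on 9p24 were also higher in Panc89. The list held 16 genes within 1 Mb of the CD274 start, chosen by name, and not every gene of that stretch. Of these, 12 were tested, with 9 higher and 0 lower in parental Panc89 cells, where 27.5% of all tested genes were higher. The counts were 9 and 0 between the Holoclone cells and 12 and 0 between the Paraclone cells, where 29.3% and 30.2% of all genes were higher, and the list medians were 1.17, 0.77 and 1.66. INSL4 and IL33 reached 1 TPM in Panc89 libraries only and so could pass the filter only by being higher there. Without them, in a count added after seeing the data, 7, 7 and 10 of 10 genes were higher and 0 lower. INSL4, a placental hormone gene, was listed at 0 in all Panc1 libraries and averaged 13.2 TPM in parental Panc89 cells, and IL33, an alarmin gene, averaged 0.239 TPM in parental Panc1 and 10.99 TPM in parental Panc89 cells. PLGRKT, a plasminogen receptor gene at chr9:5357971-5437925 on the minus strand, averaged 15.3 TPM in Panc1 Paraclone and 67.9 TPM in Panc89 Paraclone cells. The number of gene copies at 9p24 was not measured by these libraries.

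Between Panc89 Holoclone and Paraclone cells 9 of the 12 neighbours were lower and 0 higher, with a median of −0.66, where 13.3% of all genes were lower. RANBP6, a gene of the importin family, was at −1.14 (limma adjusted p = 0.000204) and PLGRKT at −0.84 (adjusted p = 0.000173), and CD274 was at 0.10 with an interval of −0.39 to 0.60. Without INSL4 and IL33, 7 of 10 were lower. CD274 was not tested against its neighbours, and at its level the log2(TPM + 1) scale understates a change. In Panc1, the Holoclone cells had 4 of the 12 neighbours higher and 0 lower, where 27.4% of all genes were higher and 9.97% lower. Under the scalings 2 and 1 neighbours were called. The change differed between the lines for 10 of the 12, each of them more negative in Panc89, where 20.4% of all genes were so called.

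**Figure D3:**
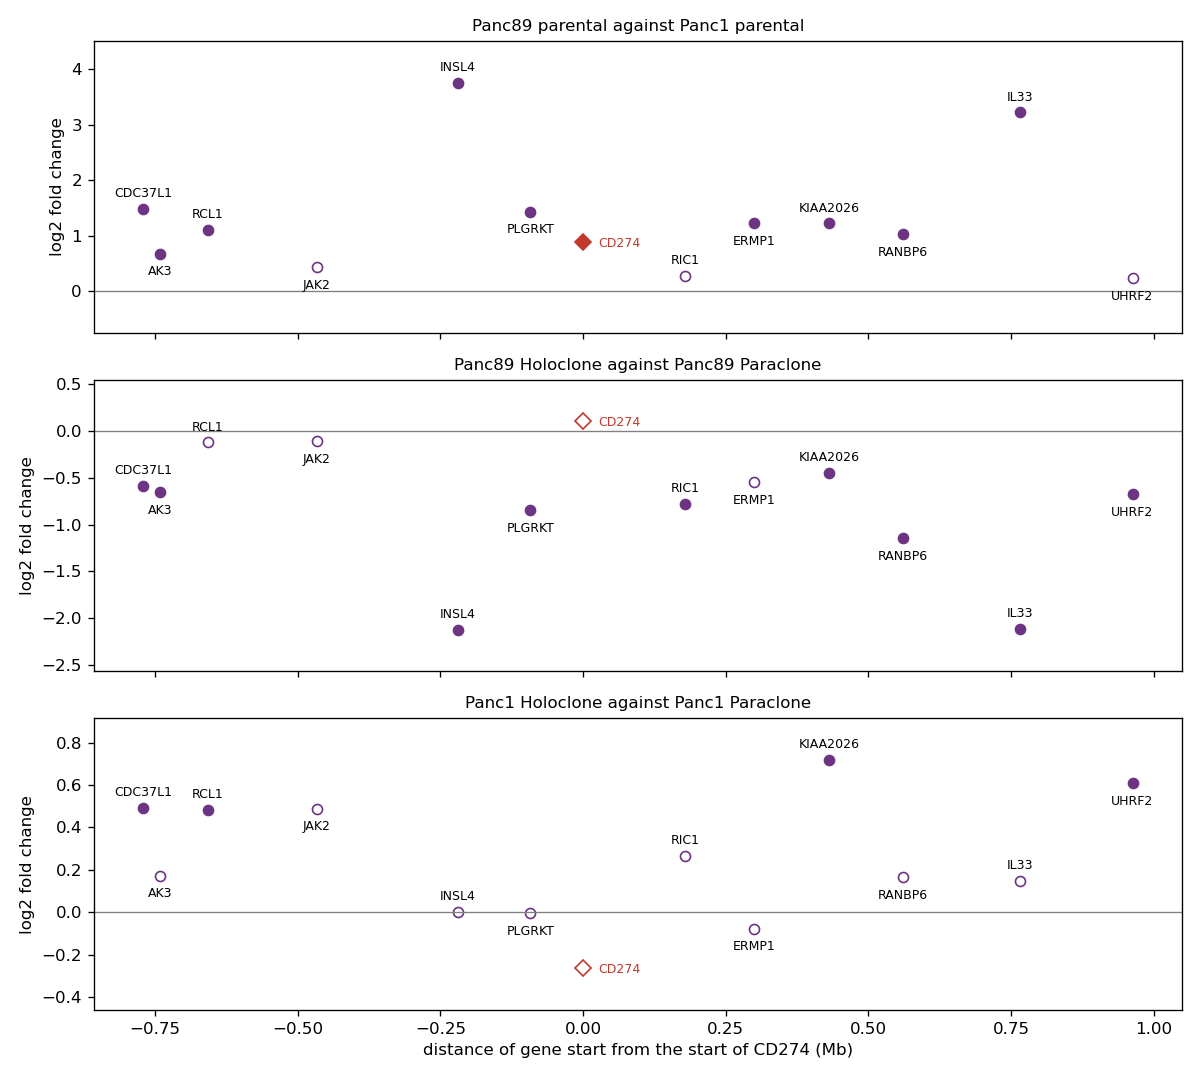
Log2 fold change (y axis, log2(TPM + 1) scale) of the 12 tested genes listed around CD274 (circles) and of CD274 (red diamond) by distance from the CD274 start (x axis, Mb), in 3 comparisons, with filled symbols called at an adjusted p under 0.05. Each gene is placed at its lowest coordinate, which for a gene on the minus strand is its end and not its start. Between the parental cells CD274 (0.89) and 9 of the 12 neighbours are called higher in Panc89, while between the Panc89 clones 9 neighbours are lower in Holoclone cells and CD274 is at 0.10.

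CD276, the B7-H3 gene, was lower in Panc89 than in Panc1 cells and highest in Panc1 Paraclone cells. Parental, Holoclone and Paraclone libraries of Panc1 were at 59.9, 66.2 and 55.7 TPM, at 58.2, 57.8 and 58.9 TPM, and at 86.7, 88.0 and 83.7 TPM. In Panc89 the parental libraries were at 43.1, 45.1 and 40.4 TPM, the Holoclone libraries at 53.7, 31.8 and 25.9 TPM and the Paraclone libraries at 43.6, 48.6 and 42.7 TPM. The Panc1 Paraclone libraries were above all others, and the Panc89 Holoclone libraries spread over the range of the other Panc89 libraries and beyond it on both sides. CD276 differed between the lines by −0.49 (SE 0.18, limma adjusted p = 0.025) in parental, −0.70 (adjusted p = 0.00263) in Holoclone and −0.93 (adjusted p = 0.000319) in Paraclone cells. The parental difference was not called after upper quartile scaling (−0.29, adjusted p = 0.0875), after median-of-ratios scaling (−0.25, adjusted p = 0.146) or without parental replicate 1 or 2 of Panc1 or 1 or 3 of Panc89 (adjusted p 0.0511 to 0.0808), and the Holoclone difference was not called in a fit of those groups alone (adjusted p = 0.0513).

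Panc1 Holoclone cells had 0.677 times the CD276 TPM of Panc1 Paraclone cells, a log2 difference of −0.55 (SE 0.18, limma adjusted p = 0.0226). This call was lost without any 1 of the Panc1 Holoclone libraries or without Paraclone replicate 1 or 2 (−0.56 to −0.54, adjusted p 0.0502 to 0.0644). Paraclone cells exceeded parental Panc1 cells by 0.50 (adjusted p = 0.046), a call lost without any 1 of the 6 libraries (0.45 to 0.57, adjusted p 0.0516 to 0.135). In Panc89 the Holoclone against Paraclone difference was −0.33 (interval −0.71 to 0.047, adjusted p = 0.165). Without Panc89 Holoclone replicate 1, the highest of its group, it was −0.63 (adjusted p = 0.000378) and Holoclone against parental was −0.56 (adjusted p = 0.00134), and it was also called under both scalings (−0.45 and −0.47).

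Other costimulatory and inhibitory ligands moved in both directions. Of a list of 32 ligands of the B7, nectin, tumour necrosis factor, galectin and butyrophilin families, 25 were tested, and 14 were higher and 6 lower in parental Panc89 than in parental Panc1 cells (27.5% and 38.5% of all genes), with a median of 0.93 beside −0.18. Of the 25, 5 reached 1 TPM in 1 line only, and without them 9 were higher and 6 lower, with a median of 0.47. Between Holoclone and Paraclone cells 3 were higher and 11 lower in Panc1 (27.4% and 9.97% of all genes) and 6 were higher and 6 lower in Panc89 (22.4% and 13.3%), and the change differed between the lines for 18 of the 25, beside 35.1% of all genes. CD24, which signals to macrophages through Siglec-10, averaged 103 TPM in Panc1 Holoclone and 0.59 TPM in Panc1 Paraclone cells (log2 difference 6.03, limma adjusted p = 2.02e-11). CADM1, an adhesion molecule bound by the receptor CRTAM, was lower in Panc1 Holoclone than in Panc1 Paraclone cells (−3.21, adjusted p = 4.76e-08) but higher in Panc89 Holoclone than in Panc89 Paraclone cells (5.05, adjusted p = 3.97e-10), and the changes differed by 8.26 (adjusted p = 1.58e-10). TNFSF18, the ligand of GITR, averaged 82.5 TPM in Holoclone and 5.47 TPM in Paraclone cells of Panc89 and was listed at 0 in the Panc1 Holoclone libraries. CD70, the ligand of CD27, was at a mean of 104 TPM in parental Panc89, 3.06 TPM in Holoclone and 6.15 TPM in Paraclone cells of Panc89, and TNFSF9, the ligand of 4-1BB, fell from 157 to 8.17 TPM between parental and Holoclone Panc89 cells (−4.22, adjusted p = 1.3e-07).

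PVR and NECTIN2, the ligands shared by TIGIT and CD226, followed different orders. PVR was at 49.1, 40.8 and 54.7 TPM in parental, 36.0, 55.5 and 42.8 TPM in Holoclone and 55.3, 46.3 and 44.9 TPM in Paraclone Panc1 cells. In Panc89 it was at 56.3, 56.9 and 56.8 TPM in parental, 57.0, 91.5 and 99.0 TPM in Holoclone and 103, 80.8 and 80.2 TPM in Paraclone cells. The Panc89 clones were thus above parental Panc89 cells in all their libraries, though Holoclone replicate 1 only just, and the Panc1 groups overlapped. Between the lines PVR was 0.85 higher in Panc89 Holoclone (SE 0.20, limma adjusted p = 0.00126) and 0.84 higher in Panc89 Paraclone cells (adjusted p = 0.00164), and 0.24 apart in parental cells (adjusted p = 0.296).

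Compared with parental Panc89 cells, PVR was 0.62 higher in Paraclone cells (SE 0.20, limma adjusted p = 0.0367) and 0.49 apart in Holoclone cells (interval 0.077 to 0.91, adjusted p = 0.0799). The Paraclone call was lost under both scalings (adjusted p = 0.0721 and 0.0579) and without any 1 of the 6 libraries other than Paraclone replicate 2 (0.50 to 0.68, adjusted p 0.0571 to 0.158), and the Holoclone difference was called without Holoclone replicate 1 (0.74, adjusted p = 0.0054). Of the 31-base stretches of PVR transcripts, 30.4% recur in other genes, 27% in the unnamed locus ENSG00000279095, and the share of reads divided between them was not measured.

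NECTIN2 differed between the Panc1 clones and not detectably between the Panc89 clones. In Panc1 it was at 100.2, 125 and 109 TPM in parental, 70.8, 79.0 and 67.5 TPM in Holoclone and 166, 155 and 133 TPM in Paraclone cells. In Panc89 it was at 82.8, 81.0 and 79.2 TPM in parental, 92.9, 75.5 and 74.5 TPM in Holoclone and 77.1, 82.6 and 77.9 TPM in Paraclone cells. The 3 Panc1 groups did not overlap with each other, with Paraclone above parental and parental above Holoclone, whereas the 3 Panc89 groups overlapped. Panc1 Holoclone cells were below Panc1 Paraclone cells (−1.05, SE 0.11, limma adjusted p = 3.81e-06), the largest NECTIN2 difference within a line, and below parental Panc1 cells (−0.61, adjusted p = 0.00223). Panc1 Paraclone cells were 0.44 above parental Panc1 cells (adjusted p = 0.00932), a call lost without parental replicate 1 (0.37, adjusted p = 0.0516) and in a fit of those groups alone (adjusted p = 0.0552).

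In Panc89 the Holoclone against Paraclone difference of NECTIN2 was 0.026 (interval −0.22 to 0.27), and it turned to −0.097 and −0.11 under the scalings. The change differed between the lines by 1.08 (SE 0.16, limma adjusted p = 9.98e-05). Between the lines NECTIN2 was lower in Panc89 Paraclone than in Panc1 Paraclone cells (−0.92, adjusted p = 3.73e-06) and in parental Panc89 cells (−0.45, adjusted p = 0.00266), the latter not called after upper quartile (−0.25, adjusted p = 0.0501) or median-of-ratios scaling (−0.21, adjusted p = 0.0904). The Holoclone cells differed by 0.15 (adjusted p = 0.246), and by 0.28 (adjusted p = 0.0327) and 0.33 (adjusted p = 0.011) under the scalings. TIGIT and CD226, the receptors of both ligands, stayed at or under 0.193 and 0.3 TPM in all libraries. CD96, also on the list of receptors of the members, reached 3.32 TPM.

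NECTIN1, which is related to NECTIN2, was at a mean of 7.67 TPM in Panc1 Holoclone and 262 TPM in Panc89 Holoclone cells, and NECTIN4, another nectin, at 0.0203 TPM in Panc1 Paraclone and 24.1 TPM in Panc89 Paraclone cells. Of 12 ligands of other NK receptors and adhesion ligands 11 were tested, and 1 was higher and 2 lower in Panc1 Holoclone than in Panc1 Paraclone cells, beside 27.4% and 9.97% of all genes. ICAM1, the ligand of the integrin LFA-1, was lower there (−1.70, limma adjusted p = 0.00012). In Panc89 the counts were 4 higher and 2 lower (22.4% and 13.3% of all genes), with MICA, a ligand of NKG2D, at −1.29 (adjusted p = 0.000644). Between the parental cells 3 were higher and 4 lower in Panc89 (27.5% and 38.5%), among them the NKG2D ligands ULBP2 (3.38, adjusted p = 4.19e-10) and MICB (−4.34, adjusted p = 2.06e-07). RAET1E and RAET1L of this list reached 1 TPM in 1 line only, and without them 2 were higher and 4 lower.

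LGALS9, the galectin-9 gene, showed the largest difference between the lines of all members. It was at 0.580, 0.632 and 0.468 TPM in parental, 0.532, 1.95 and 0.603 TPM in Holoclone and 0.668, 0.946 and 1.71 TPM in Paraclone Panc1 cells. Panc89 libraries held 122, 59.5 and 121 TPM in parental, 35.6, 29.9 and 40.6 TPM in Holoclone and 21.4, 77.9 and 54.8 TPM in Paraclone cells. No Panc1 library reached any Panc89 library, the Panc89 Holoclone libraries were below all parental ones, and the Paraclone libraries overlapped both. The difference between the lines was 5.96 (SE 0.39, limma adjusted p = 2.2e-09) in parental, 4.22 (adjusted p = 1.29e-07) in Holoclone and 4.48 (adjusted p = 7.16e-08) in Paraclone cells.

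Within Panc89, LGALS9 was lower in Holoclone than in parental cells (−1.42, SE 0.39, limma adjusted p = 0.0149), a call lost without parental replicate 1 (−1.25, adjusted p = 0.0652) or 3 (−1.25, adjusted p = 0.0655) or Holoclone replicate 2 (−1.31, adjusted p = 0.0574). Paraclone cells differed from parental cells by less (−1.07, adjusted p = 0.0717), and called without parental replicate 2 (−1.40, adjusted p = 0.0284) or Paraclone replicate 2 (−1.45, adjusted p = 0.0134). Holoclone and Paraclone cells differed by −0.36 (interval −1.19 to 0.48, adjusted p = 0.525).

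The near copies of LGALS9, whose promoter bases are printed with those of LGALS9, held much of the signal. Of the 31-base stretches of LGALS9 transcripts, 29.3% recur in other genes, 18% in LGALS9C and 12.9% in LGALS9B, and a read inside such a stretch cannot be placed by its sequence alone. LGALS9B was assigned 104 to 151 TPM and LGALS9C 23.0 to 44.3 TPM in the parental Panc89 libraries, and neither exceeded 0.0298 TPM in a Panc1 library. LGALS9 itself took 31.9% to 40.7% of the family's TPM in parental, 49.6% to 82.8% in Holoclone and 34.1% to 50.9% in Paraclone Panc89 libraries. The Panc89 Holoclone libraries therefore differed from parental libraries both in the family total and in how it was divided.

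Summed over the 3 genes, the parental Panc89 libraries were at 299, 187 and 316 TPM, the Holoclone libraries at 71.7, 47.7 and 49.0 TPM and the Paraclone libraries at 62.8, 153 and 126 TPM. Neither group of clones then reached the parental libraries. In a test of the sum, chosen after seeing the data, the difference between the lines was 7.38 in parental, 4.85 in Holoclone and 5.70 in Paraclone cells (limma adjusted p = 1.78e-11, 2.67e-09 and 3.93e-10). Panc89 Holoclone cells were below parental cells (−2.22, adjusted p = 0.000121), Panc89 Paraclone cells likewise (−1.28, adjusted p = 0.0111), and Holoclone cells below Paraclone cells (−0.94, adjusted p = 0.0343).

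**Figure D4:**
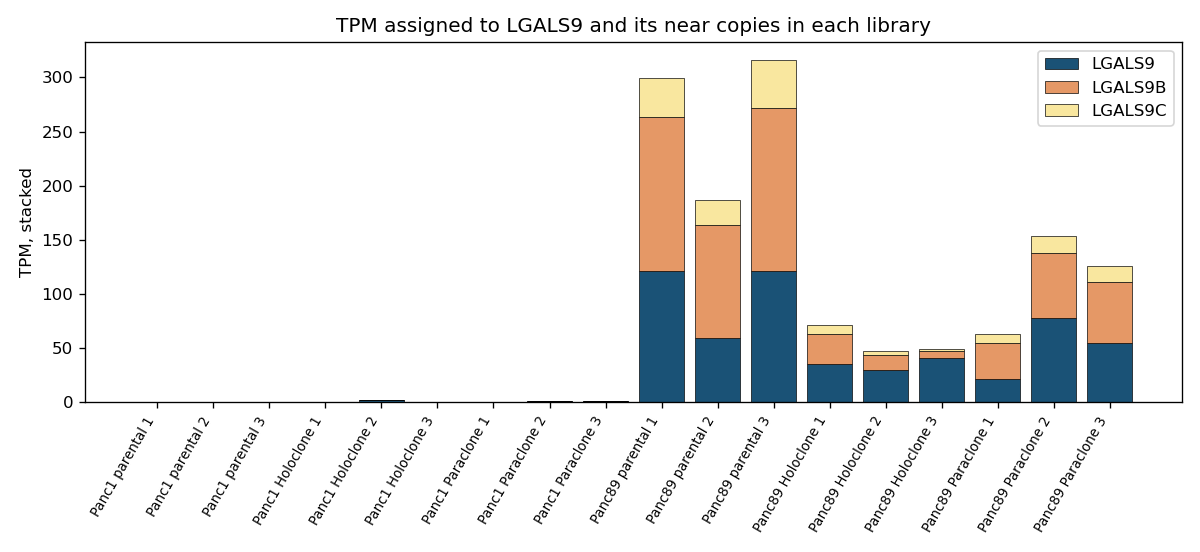
TPM assigned to LGALS9, LGALS9B and LGALS9C (y axis, stacked bars) in each of the 18 libraries (x axis). The Panc1 bars stay at or under 1.95 TPM, the parental Panc89 bars reach 187 to 316 TPM, and LGALS9B takes the largest part of each parental Panc89 bar.

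CD47 was among the most even members. Its values were 94.3, 107 and 101 TPM in parental, 82.9, 91.5 and 91.2 TPM in Holoclone and 129, 98.8 and 94.2 TPM in Paraclone Panc1 cells. In Panc89 the values were 94.9, 60.5 and 88.8 TPM in parental, 101, 80.6 and 67.8 TPM in Holoclone and 57.6, 80.8 and 57.8 TPM in Paraclone cells. Groups overlapped in most pairs, with the Panc1 Holoclone libraries below both other Panc1 groups and the Panc89 Paraclone libraries below the Panc1 Paraclone libraries. The called difference was that between the Paraclone cells of the lines, −0.71 (SE 0.19, limma adjusted p = 0.00374).

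Between Holoclone and Paraclone cells CD47 differed by −0.26 (interval −0.66 to 0.13, limma adjusted p = 0.301) in Panc1 and by 0.34 (interval −0.057 to 0.74, adjusted p = 0.175) in Panc89, and the change differed by 0.60 between the lines (adjusted p = 0.0899). The scalings gave −0.51 and −0.54 in Panc1 (adjusted p = 0.0186 and 0.0123) and a difference between the lines of 0.73 and 0.75 (adjusted p = 0.0167 and 0.0138). That difference was also called without Panc89 Holoclone replicate 3 (0.74, adjusted p = 0.048) or Panc89 Paraclone replicate 2 (0.76, adjusted p = 0.0303), and the Panc89 difference without Paraclone replicate 2 (0.50, adjusted p = 0.0494).

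The binding of CD47 to SIRPA is strengthened when its end is modified by a glutaminyl cyclase. Genes of glutaminyl cyclases varied more than CD47. Of 7 genes of CD47 partners and modification, 1 was higher and 3 lower in Panc1 Holoclone than in Panc1 Paraclone cells, beside 27.4% and 9.97% of all genes. QPCT, a glutaminyl cyclase gene, averaged 4.92 TPM in Panc1 Holoclone and 26.4 TPM in Panc1 Paraclone cells (−2.24, limma adjusted p = 3.44e-06), and 0.222 TPM in Panc89 Paraclone cells. QPCTL, the form that acts on CD47 in the Golgi, averaged 7.16 TPM in Panc1 Holoclone and 19.5 TPM in Panc89 Holoclone cells (1.34, adjusted p = 3.78e-05). THBS1, a soluble ligand of CD47, was lower in Panc1 Holoclone than in Panc1 Paraclone cells (−2.54, adjusted p = 0.000382) and averaged 1.66 and 15.5 TPM in these groups. LRP1, which works with calreticulin as a phagocytic receptor, was 1.40 higher in Panc89 Holoclone than in Panc89 Paraclone cells (adjusted p = 0.00456).

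NT5E, the CD73 gene, had the largest change between Holoclone and Paraclone cells of all members and was the member called in both lines. Panc1 libraries held 181, 146 and 149 TPM in parental, 158, 112 and 132 TPM in Holoclone and 241, 241 and 209 TPM in Paraclone cells. In Panc89 the parental libraries were at 47.9, 51.6 and 43.1 TPM, the Holoclone libraries at 44.8, 37.4 and 31.7 TPM and the Paraclone libraries at 237, 143 and 169.6 TPM. The Panc89 Paraclone libraries lay in the range of the Panc1 libraries, and parental and Holoclone Panc89 libraries lay below every other library. In order of mean, Panc1 Paraclone cells led, followed by Panc89 Paraclone, parental Panc1 and Panc1 Holoclone cells, each overlapping with the next, and parental and Holoclone Panc89 cells came last and overlapped with each other.

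Panc89 Holoclone cells had 0.207 times the NT5E TPM of Panc89 Paraclone cells, a log2 difference of −2.22 (SE 0.18, limma adjusted p = 1.48e-07). In Panc1 the difference was −0.79 (SE 0.18, adjusted p = 0.00247), with a TPM ratio of 0.581. The change was larger in Panc89 (difference −1.44, SE 0.25, adjusted p = 0.000385). Paraclone cells exceeded parental cells by 1.90 in Panc89 (adjusted p = 2.65e-06) and by 0.54 in Panc1 (adjusted p = 0.0333), the latter not called without parental replicate 2 or 3 or Paraclone replicate 1 or 2 of Panc1 (0.48 to 0.50, adjusted p 0.0823 to 0.102). Holoclone and parental cells differed by −0.25 in Panc1 and by −0.33 in Panc89, neither called (adjusted p = 0.448 and 0.205).

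Between the lines NT5E was lower in parental Panc89 (−1.71, limma adjusted p = 4.4e-07) and in Holoclone Panc89 cells (−1.79, adjusted p = 2.65e-07). Between the Paraclone cells it differed by −0.36 (interval −0.73 to 0.022, adjusted p = 0.0959), and by −0.56 without Panc89 Paraclone replicate 1 (adjusted p = 0.0106), the library with the highest value of its group. No 31-base stretch of NT5E recurred in another gene.

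ENTPD1, the enzyme before NT5E, did not exceed 0.340 TPM in any library, reached in parental Panc89 replicate 1, and each group overlapped with the next in order of mean. Of its 31-base stretches 43.7% recur in ENTPD1-AS1, an antisense RNA over the same locus that stood at 6.21 to 17.9 TPM, so the division of reads between them is uncertain. Other enzymes that yield AMP or adenosine were present. ENTPD2 averaged 12.1 TPM in parental Panc89 and 0.894 TPM in parental Panc1 cells (2.80, limma adjusted p = 3.53e-07), and ENTPD3 averaged 22.4 TPM in Panc89 Paraclone and 2.26 TPM in Panc89 Holoclone cells (−2.62 for Holoclone against Paraclone, adjusted p = 1.74e-05). ALPP, a placental alkaline phosphatase that can also dephosphorylate AMP, averaged 109 TPM in parental, 0.425 TPM in Holoclone and 63.8 TPM in Paraclone Panc89 cells, and its difference between Holoclone and Paraclone cells was −5.40 (adjusted p = 6.13e-09). ALPP and ALPG are near-identical genes, so the split between them is uncertain.

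The adenosine list held 27 further genes for ectoenzymes, adenosine removal, transport and receptors, of which 17 were tested. Between Holoclone and Paraclone cells 3 were higher and 6 lower in Panc89 (22.4% and 13.3% of all genes), with a median of −0.35 beside 0.09 for all genes, and 1 was higher and 3 lower in Panc1 (27.4% and 9.97%), with a median of 0.019 beside 0.19. ADA, which removes adenosine, was lower in Panc1 Holoclone than in Panc1 Paraclone cells (−0.89, limma adjusted p = 0.00149), the same direction as NT5E. Between the lines 7 were higher and 7 lower in parental Panc89 cells (27.5% and 38.5% of all genes). The counts were 4 and 8 in Holoclone (29.3% and 36.4%) and 7 and 9 in Paraclone cells (30.2% and 30.4%). Of the 17, 5 reached 1 TPM in 1 line only. Without them the counts were 4 and 5 in parental, 2 and 7 in Holoclone and 4 and 7 in Paraclone cells. SLC29A1, a nucleoside transporter, averaged 131 TPM in Panc1 Holoclone and 51.3 TPM in Panc89 Holoclone cells (−1.40, adjusted p = 0.00562), and SLC29A2 was 1.84 higher in Panc89 Holoclone cells (adjusted p = 2.6e-05).

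IDO1 was under 1 TPM in all libraries and higher in parental and Holoclone Panc89 cells than elsewhere. It was listed at 0 in 1, 2 and 1 of the parental, Holoclone and Paraclone libraries of Panc1 and reached 0.0951 TPM there. In Panc89 it was at 0.942, 0.549 and 0.954 TPM in parental, 0.666, 0.392 and 0.646 TPM in Holoclone and 0.149, 0.239 and 0.0584 TPM in Paraclone cells. The Paraclone libraries were below all parental and Holoclone libraries of Panc89. In a fit of 29343 genes without the filter on low values, the difference between the parental cells was 0.78 (limma adjusted p = 6.51e-06), that between the Holoclone cells 0.60 (adjusted p = 7.45e-05) and that between Panc89 Holoclone and Paraclone cells 0.45 (adjusted p = 0.00257). Paraclone cells were below parental Panc89 cells (−0.65, adjusted p = 0.000294), and the Holoclone against Paraclone change differed between the lines by 0.42 (adjusted p = 0.0325).

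Further along the pathway, KYNU, which cleaves kynurenine, averaged 0.0808 TPM in parental Panc1 and 353 TPM in parental Panc89 cells (8.35, limma adjusted p = 1.55e-15). QPRT, which takes the pathway toward NAD, was lower in parental Panc89 cells (−4.21, adjusted p = 2.52e-10). Of 18 genes of the tryptophan and kynurenine pathway 15 were tested, with 5 higher and 5 lower in parental Panc89 cells (27.5% and 38.5% of all genes). Of the 15, 3 reached 1 TPM in 1 line only, KYNU among them. Without these 3, 4 were higher and 4 lower. Between Holoclone and Paraclone cells 4 were higher and 4 lower in Panc1 (27.4% and 9.97%), and 7 were higher and 1 lower in Panc89 (22.4% and 13.3%), where the list median was 0.46 beside 0.09 for all genes. SLC7A5 and SLC3A2, the subunits of the LAT1 transporter that carries tryptophan and kynurenine, averaged 2730 and 2104 TPM in Holoclone and 545 and 426 TPM in Paraclone cells of Panc89, differences of 2.32 and 2.27 (adjusted p = 5.92e-08 and 4.58e-06). AHR, the receptor that kynurenine binds, was lower in Panc1 Holoclone than in Panc1 Paraclone cells (−1.83, adjusted p = 5.85e-06), and its change differed between the lines by 3.48 (adjusted p = 3.08e-07).

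For members whose 6 group means spanned more than 1 on the log2 scale, the 2 genes with the most similar pattern were found by the root mean square difference of the group means after centring. CD274 was nearest to TRAP1 (0.063) and PIK3R2 (0.065), which lay at higher levels. Their log2 means were 6.42 to 7.52 for TRAP1 and 4.35 to 5.44 for PIK3R2. At the low level of CD274 the log2(TPM + 1) scale shrinks its step, so this likeness does not extend to TPM ratios. CD274 TPM in Panc89 were 4.3, 8.1 and 3.0 times those in Panc1 for parental, Holoclone and Paraclone cells. CD276 was nearest to NFKBIE (0.070) and PLBD2 (0.071). The nearest genes to NT5E were FGD6 (0.25) and PBX4 (0.27), with FGD6 at log2 means of 2.44 in Holoclone and 3.97 in Paraclone cells of Panc89. LGALS9 was nearest to HSH2D (0.21) and KLK6 (0.27), both near 0 in Panc1. NECTIN2 was nearest to the small RNA genes SNORD113-5 (0.060) and MIR933 (0.075), which were listed at 0 in 4 of the 6 groups. Each likeness rests on 6 group means of the same libraries and is a description.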

How the data were processed

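RNA from 3 passages of each of 6 groups had been sequenced by the authors with a stranded mRNA kit, quantified with kallisto 0.46.1 against Ensembl transcripts of GRCh38 and summarised per gene as scaled TPM. Values were deposited by the authors as log2(TPM + 1), so no counts were tested, and the kallisto strand setting is not given in the sources used here. Genes at 1 TPM or more in at least 3 libraries (16093) were fitted with limma 3.58.1 in R 4.3.3 as 6 group means with a mean-variance trend over all 18 libraries, two-sided, with Benjamini-Hochberg adjustment and calls under 0.05. The p-values measure the spread between passages of 1 culture or clone. Columns were matched to samples by title, and 0 columns had no sample. The fit was tested on simulated data. Members and lists were chosen with earlier results of these data known. The lists were other checkpoint ligands, NK and adhesion ligands, adenosine, tryptophan, CD47 partners, PD-L1 control, 9p24 genes, receptors and cell type markers. For each list and comparison at most 2 called genes with the largest change were named, if their higher group averaged 10 TPM or more. Likeness was the root mean square difference of centred group means for members spanning over 1. Shared stretches of 31 bases were counted in GENCODE 44 transcripts. Alternatives were a pseudocount of 0.1, a minimum of 5 TPM or none, 2 scalings, no trend, groups alone, a replicate block, an absolute log2 change over 1 and leaving out each library. The LGALS9 family sum and the counts without genes at 1 TPM in 1 line only were chosen after seeing the data. The authors' own tests were not used.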

Additional observations from a re-analysis of the deposited data

Results flagged for a closer look

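NT5E changed unequally between the lines. Its Holoclone against Paraclone difference was −2.22 in Panc89 and −0.79 in Panc1, and the interaction term of limma gave −1.44 (SE 0.25, adjusted p = 0.000385) for Panc89 minus Panc1, with every Holoclone library below every Paraclone library in both lines.

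NECTIN2 also changed unequally. Its difference was 0.026 in Panc89 and −1.05 in Panc1, and the interaction term gave 1.08 (SE 0.16, adjusted p = 9.98e-05). Each line contributes 1 Holoclone and 1 Paraclone clone, so lines and clones cannot be told apart in either result. Groups of 3 libraries were not searched for outlying libraries.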

How the results depend on the processing

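The replicate numbers did not pair the libraries. Over 18 pairs of libraries with the same number within a line, the correlation of deviations from the group means was −0.318 to 0.190 (mean −0.0418), 3 pairs were over 0.1, and 2 of 18 libraries correlated best with their own number. With the replicate block, over all libraries or within line, 1 member was called between Paraclone and parental Panc89 cells in place of 2. Of all genes 18.8% and 16.7% were called there. PVR lost its call there under both blocks (adjusted p = 0.0533 and 0.0875), the block within line also lost CD276 between Paraclone and parental Panc1 cells (0.50, adjusted p = 0.0544), a call also lost without the variance trend (adjusted p = 0.0522), and with the block over all libraries NT5E was called between the Paraclone cells of the lines (adjusted p = 0.0378).

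Over the alternatives for single members, 1016 values kept their direction and side of the threshold, 63 lost a call, 20 gained one and 42 turned direction. The cause was not tested. Without the filter 2 members were called between Holoclone and Paraclone Panc89 cells, beside 21.7% of 29343 genes. For the difference between the lines 4 were called, beside 20.2%, with IDO1 and PDCD1LG2 then among the genes tested. The same fit lost the calls of CD276 (adjusted p = 0.077) and NT5E (adjusted p = 0.0584) between Paraclone and parental Panc1 cells and of PVR (adjusted p = 0.0636) between Paraclone and parental Panc89 cells. Under upper quartile scaling as under median-of-ratios scaling 3 members were called between the parental cells (65.5% and 65.3% of all genes). Between Holoclone and Paraclone Panc89 cells 2 were called (36.4% and 36.5%), and between Paraclone and parental Panc89 cells 1 (20.9% and 21.2%). With an absolute log2 change over 1, 2 members were called between the parental cells of the lines (37.4% of all genes). Between the Holoclone cells 3 were called (37.3%) and between the Paraclone cells 1 (32.8%). For Holoclone against Paraclone Panc1 cells 1 was called (11.6%). Against parental Panc1 cells 0 were called for Holoclone (3.21%) and 0 for Paraclone cells (7.95%). For Paraclone against parental Panc89 cells 1 was called (7.36%).

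Turned directions were of small differences. CD274 between Holoclone and parental Panc89 cells was 0.011 with a pseudocount of 0.1. Under upper quartile and median-of-ratios scaling, CD47 was 0.013 and 0.069 between the Holoclone cells of the lines and −0.068 and −0.065 between Holoclone and parental Panc89 cells, NECTIN2 was −0.097 and −0.11 between Holoclone and Paraclone Panc89 cells, and NECTIN2 was 0.0054 under median-of-ratios scaling between Paraclone and parental Panc89 cells.

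Leaving out 1 library at a time, the members called ranged from 1 to 2 between Paraclone and parental Panc1 cells, 0 to 3 between Holoclone and parental Panc89 cells, 1 to 3 between Paraclone and parental Panc89 cells and 1 to 2 between Holoclone and Paraclone Panc89 cells. With every library kept, 28.6%, 24.7%, 19.4% and 35.7% of all genes were called in these comparisons. For Holoclone against parental Panc1 cells CD276 ranged from −0.11 to 0.013 and PVR from −0.28 to 0.026. For Paraclone against parental Panc1 cells CD274 ranged from −0.068 to 0.26, CD47 from −0.061 to 0.16 and PVR from −0.090 to 0.12. CD47 between the Holoclone cells of the lines ranged from −0.25 to 0.027. For Holoclone against Paraclone Panc1 cells PVR ranged from −0.30 to 0.0039 and LGALS9 from −0.40 to 0.10. For Holoclone against Paraclone Panc89 cells the ranges were −0.016 to 0.32 for CD274, −0.27 to 0.12 for PVR, −0.076 to 0.081 for NECTIN2 and −0.88 to 0.029 for LGALS9. For the difference between the lines they were −0.072 to 0.44 for CD276, −0.13 to 0.26 for PVR and −0.79 to 0.12 for LGALS9. For Holoclone against parental Panc89 cells they were −0.18 to 0.19 for CD274, −0.16 to 0.17 for CD47 and −0.11 to 0.048 for NECTIN2, and for Paraclone against parental Panc89 cells −0.33 to 0.086 for CD274. The values keep no read totals, so depth sets no stated limit, and CD274, PDCD1LG2, ENTPD1 and IDO1 rest on low TPM.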
